A study of Mus musculus with 2 samples.

Results

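The data concern 37 genes that encode transcription factors of the salivary gland's lineages, chosen by name from the 26033 genes of the files. All 37 were found by symbol. Nuclei came from salivary glands of mice aged 20 days, with no cell type selected, and each genotype had 1 library. The control library was C56BL/6 Csf2+/- and the null library C56BL/6 Csf2-/-. Both groups therefore carried at least 1 null allele of Csf2, which encodes GM-CSF, a growth factor for macrophages and granulocytes, and a wild type was not analysed here. The labels did not give the sex, which of the salivary glands were taken or whether animals were pooled. Csf2 itself had 5 UMIs (unique molecular identifiers, which count captured RNA molecules) in the control library and 0 in the null library, over all barcodes.

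Lineage transcription factors bind DNA and set which genes a cell type uses. In a salivary gland, acinar cells make saliva, ducts modify it, ionocytes move ions, and myoepithelial cells squeeze the acini. Fibroblasts, vessels, nerves and immune cells surround this epithelium, and lineages are known for their own SOX, ETS, forkhead, EBF or GATA factors.

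The 250 bases before the transcription start are shown for 6 of these genes, because the promoter is the regulatory sequence nearest to each. RefSeq promoters on GRCm38.p6, an older build than the files' GRCm39, were matched by symbol for 23 of the 37 genes. The 6 windows are those of genes with the same highest cell class in both libraries (given in brackets), 1 start and no annotated exon inside the window. Capitals mark the AP-2 motif GCCNNNGGC, which the products of 3 of the genes, Tfap2a, Tfap2b and Tfap2c, are known to bind.
Bhlha15 (acinar-like), chr5:144190036-144190285, plus strand: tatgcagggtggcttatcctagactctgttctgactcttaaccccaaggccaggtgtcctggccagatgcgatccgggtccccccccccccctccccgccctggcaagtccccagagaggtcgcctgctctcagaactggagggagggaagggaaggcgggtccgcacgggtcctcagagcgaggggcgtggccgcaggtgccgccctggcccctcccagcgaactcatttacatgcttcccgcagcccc
Tfap2b (group 4), chr1:19211804-19212053, plus strand: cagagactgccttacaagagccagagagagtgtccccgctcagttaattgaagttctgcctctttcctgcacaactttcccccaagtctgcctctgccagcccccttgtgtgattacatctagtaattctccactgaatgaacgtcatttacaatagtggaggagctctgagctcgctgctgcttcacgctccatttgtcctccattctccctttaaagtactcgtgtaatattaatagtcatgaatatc
Sox2 (group 5), chr3:34649745-34649994, plus strand: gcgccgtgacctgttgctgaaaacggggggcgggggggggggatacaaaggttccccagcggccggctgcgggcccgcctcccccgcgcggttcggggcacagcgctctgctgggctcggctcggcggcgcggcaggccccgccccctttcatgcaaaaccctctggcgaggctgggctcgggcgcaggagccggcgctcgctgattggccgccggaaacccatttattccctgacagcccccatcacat
Tfcp2l1 (luminal duct-like), chr1:118627695-118627944, plus strand: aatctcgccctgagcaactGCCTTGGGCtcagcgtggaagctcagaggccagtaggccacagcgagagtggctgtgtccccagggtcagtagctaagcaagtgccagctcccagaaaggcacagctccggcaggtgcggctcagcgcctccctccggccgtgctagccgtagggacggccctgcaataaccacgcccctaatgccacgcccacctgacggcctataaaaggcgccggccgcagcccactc
Ebf3 (fibroblast-like), chr7:137314446-137314695, minus strand: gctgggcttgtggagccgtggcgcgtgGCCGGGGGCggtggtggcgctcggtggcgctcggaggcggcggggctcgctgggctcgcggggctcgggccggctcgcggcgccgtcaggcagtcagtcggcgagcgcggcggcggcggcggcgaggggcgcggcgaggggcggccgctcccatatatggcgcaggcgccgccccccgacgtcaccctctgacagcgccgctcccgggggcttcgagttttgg
Twist1 (fibroblast-like), chr12:33957421-33957670, plus strand: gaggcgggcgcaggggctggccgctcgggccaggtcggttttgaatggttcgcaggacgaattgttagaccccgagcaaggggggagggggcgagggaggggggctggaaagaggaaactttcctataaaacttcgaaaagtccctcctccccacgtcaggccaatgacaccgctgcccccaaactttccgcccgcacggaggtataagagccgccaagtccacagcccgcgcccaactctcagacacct
Searched on both strands, the motif stood in the windows of Tfcp2l1 and Ebf3, and in 10 of the 36 windows of the 23 matched genes (27.8%). Of all 32851 windows of the same length, 13.7% held it. The motif's fixed letters are G and C. GC content ran from 46.4% at Tfap2b to 80.0% at Ebf3 in the 6 windows shown. Over the 36 windows it ran from 36.0% at a start of Erg to 82.4% at a start of Pparg. The forkhead motif TGTTTAC, the ETS motif CCGGAAG and the grainyhead motif AACNNGTT stood in 0 of the 36 windows, against 3.17%, 6.91% and 3.64% of all windows. In all, 10 motif families were searched. The homeodomain motif TAATTA stood in 5 of the 36 windows (13.9%, against 4.84% of all windows), and the motif CAGCTG of helix-loop-helix factors in 2 (5.56%, below the share of all windows). The GATA motif AGATAA stood in 1 window (2.78%, against 9.99%), the SOX motif ACAATG in 3 (8.33%, against 10.7%), the RUNX motif TGTGGT in 3 (8.33%, against 14.05%) and the EBF motif in 0 (against 0.779%).

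The control library held 8593 nuclei with a median of 2813 UMIs and the null library 14336 with a median of 1948.5, beside 59347 and 41181 barcodes taken as free RNA. Nuclei were clustered with no transcription factor among the genes used, and classes are called X-like from marker genes. Counts of raised marker genes refer to the largest group of the class so named. At least 2-fold raised were 16 of 16 macrophage, 15 of 15 endothelial, 11 of 12 fibroblast and 10 of 12 ionocyte genes. So were 8 of 12 luminal duct and 4 of 8 intercalated duct genes. Of the acinar genes only 5 of 14 were raised, at a lower limit of 1.5-fold. In the control library the acinar list summed to 132539 CPM in the acinar-like class, below 132709 CPM in T, NK or innate lymphoid-like nuclei. In the null library the acinar-like class was highest of the ranked classes, at 170091 CPM. The intercalated duct list was not highest in the class so named. Its summed level was 8502 and 9672 CPM there, 10107 and 9931 CPM in group 5 and 44367 and 39945 CPM in group 4. The list holds Smgc, a secretory gene abundant in free RNA, with 1.92% of the UMIs of barcodes under 1000 UMIs. In Schwann-like nuclei the list summed to 7104 and 9287 CPM. The part of free Smgc in these sums was not tested. In group 4, 3 of the 8 intercalated duct genes (Smgc, Gstt1 and Dcdc2a) were raised, at the limit of 1.5-fold. Group 4 (led by Dcdc2a and Casr) and group 5 (with raised Muc19, a gel-forming mucin) were left unnamed by the rules and are given by number. In group 5, 4 of 11 mucous acinar genes (Muc19, Galnt12, B3gnt6 and Galnt7) were raised at least 2-fold. It was not named because its leading genes held more markers of another list. The mucous acinar list summed to 35578 and 29606 CPM in group 5. The next highest ranked classes had 2777 CPM (ionocyte-like, control) and 3794 CPM (T, NK or innate lymphoid-like, null). The 8 secretory genes most abundant in free RNA took 10.7% to 16.9% of the UMIs of the 12 ranked classes in the control library and 15.0% to 20.9% in the null library. Levels are UMIs scaled by the total of the class to the usual CPM unit, given for the control and then the null library, with exact Poisson 95% intervals in brackets. All intervals cover counting error only, and with 1 library per genotype there was no replicate check and no test. Fewer nuclei with a transcript and less transcript per nucleus cannot be told apart in these sums.

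Most of the 37 genes had the same highest class in both libraries, and some stood clearly above every other class. A gene was said to have 1 leading class when the same class was highest in both libraries and at least 2-fold above the next in each. It also needed at least 20 UMIs per library over the 12 ranked classes. These had at least 100 nuclei over both libraries and a secretory share under the limit for free RNA. Group 15, of 44 and 58 nuclei, was not ranked because the 8 secretory genes took 43.1% and 47.7% of its UMIs. Of the 37 genes 34 reached that depth, and Grhl3, Myocd and Gata2 did not. The highest class was the same in both libraries for 29 of the 34 (85.3%), and 12 of the 34 (35.3%) had 1 leading class. Of all 14558 genes of that depth 48.0% had the same highest class and 10.3% had 1 leading class. Among 103 other transcription factors on a list for these lineages, 35 of 83 (42.2%) had 1 leading class, so the 37 genes did not exceed other listed factors.

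The 12 genes were Bhlha15 in acinar-like nuclei, Tfap2b in group 4, Klf5 in group 5, Foxc1 in intercalated duct-like nuclei, Trp63 and Tfap2c in myoepithelial or basal-like nuclei, Ebf2 and Prrx1 in fibroblast-like nuclei, Erg, Sox17 and Sox18 in endothelial-like nuclei and Gata3 in T, NK or innate lymphoid-like nuclei. Of the 37 genes, 0 led in this way in luminal duct-like, ionocyte-like, Schwann-like or macrophage-like nuclei. Under 5 other ways of filtering or clustering the barcodes, which left 8 or 9 genes, Bhlha15, Tfap2b and Klf5 no longer had 1 leading class.

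**Figure D1:**
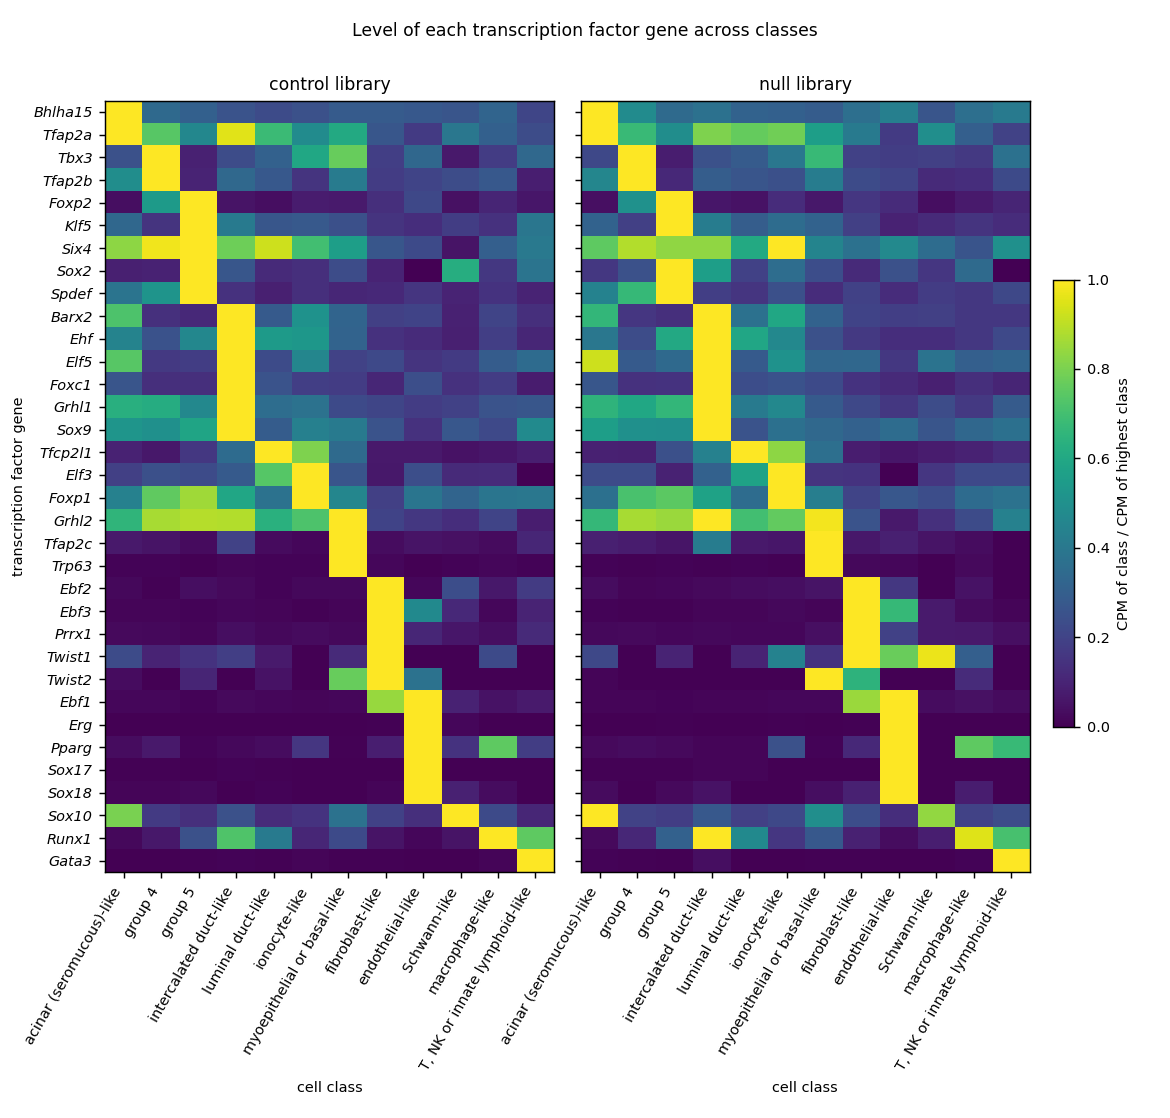
Level of each of the 34 genes of sufficient depth (rows) in each of the 12 classes (columns), as CPM divided by the CPM of the gene's highest class, for the control library (left) and the null library (right). Trp63, Erg and Sox17 stand out in a single column, whereas Six4 and Grhl2 are spread over several epithelial columns.

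Bhlha15, which encodes MIST1, a factor of the secretory machinery of serous cells, was the acinar gene of the set. In acinar-like nuclei it was at 550.0 CPM (537 to 563) and 458 CPM (447 to 469). Group 4 came next at 189 and 221 CPM, so the acinar-like level stood 2.91-fold and 2.07-fold above it. Free RNA, at 282 and 289.6 CPM, held more Bhlha15 than any class but the acinar-like one. With every barcode thinned to 500 UMIs, 22.4% and 19.8% of acinar-like nuclei had a UMI of Bhlha15, against 12.8% and 13.3% of free-RNA barcodes.

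The acinar-like class pools a main group with a second one of 122 and 274 nuclei, led by Myrfl and Kcne1 and with raised Bpifa2 and Dcpp genes, and several of the 37 genes separated the 2 groups. Bhlha15 was at 564 and 469 CPM in the main group and at 179.9 and 198 CPM in the second. Ehf, an ETS factor of epithelia, was higher in the second group, at 1321 and 1108 CPM against 519 and 348 CPM. Sox2, a progenitor factor, was at 27.3 CPM (12 UMIs) and 44.4 CPM (28 UMIs) in the second group and at 1.04 CPM (12 UMIs) and 2.63 CPM (37 UMIs) in the main group, with intervals apart in both libraries. Gata3 had the same direction, at 15.9 CPM (7 UMIs) and 25.4 CPM (16 UMIs) against 0.261 CPM (3 UMIs) and 0.426 CPM (6 UMIs). Tfap2b, an AP-2 factor, was lower in the second group, at 29.6 and 41.2 CPM against 108 and 102 CPM.

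Sox10 and Tfap2a were high in acinar-like nuclei without standing 2-fold above the rest. Sox10, which directs neural crest glia and also glandular acinar and myoepithelial cells, was at 259 and 439 CPM in acinar-like nuclei. In Schwann-like nuclei it was at 324 CPM (261 to 398) and 369 CPM (295 to 455), so the highest class changed between the libraries and the intervals overlapped in both. Tfap2a, an AP-2 factor of ectodermal epithelia, was at 189 and 182 CPM in acinar-like and at 181 and 147 CPM in intercalated duct-like nuclei, above the 99.4 and 88.7 CPM of free RNA.

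Among the ranked classes group 5, the nuclei with raised Muc19, had the highest levels of Foxp2, Spdef, Klf5 and Sox2 in both libraries. Spdef, an ETS factor known from mucous and goblet cells, was at 614 and 532 CPM there and next at 318 and 356 CPM in group 4. Foxp2, a forkhead repressor, followed the same order, with 737 and 702 CPM in group 5 and 402 and 355 CPM in group 4. The leads of 1.93-fold and 1.49-fold for Spdef and 1.83-fold and 1.98-fold for Foxp2 fell short of 2-fold. Klf5, a Krüppel-like factor of epithelia, did lead, with 157 and 144 CPM against 64.0 and 60.5 CPM in intercalated duct-like nuclei. Sox2 was at 22.8 CPM (28 UMIs) and 27.3 CPM (63 UMIs) in group 5, against 4.17 and 9.67 CPM in free RNA. The second acinar-like group had a higher level than this in both libraries, with intervals that overlapped those of group 5 in each. By these levels group 5 was highest only with the acinar-like groups pooled.

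Group 4 was highest in both libraries for Tfap2b and Tbx3. Tfap2b was at 214 CPM (193 to 236) and 217 CPM (197 to 238), 2.04-fold and 2.18-fold above acinar-like nuclei. In group 5 it was at 21.2 and 25.2 CPM, below the 70.0 and 64.0 CPM of free RNA. Tbx3, a T-box repressor of epithelial development, was at 105 and 113 CPM in group 4 and at 9.78 and 9.11 CPM in group 5, and myoepithelial or basal-like nuclei came second at 80.2 and 76.2 CPM. Both unnamed groups thus held Foxp2 and Spdef, and Tfap2b, Tbx3 and Klf5 set them apart.

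Intercalated duct-like nuclei were the highest class in both libraries for Foxc1, Ehf, Barx2, Elf5, Grhl1 and Sox9. Foxc1, a forkhead factor of mesenchyme and glandular epithelium, stood furthest above the rest, at 352 CPM (316 to 392) and 288 CPM (258 to 320.2). Acinar-like nuclei came next at 92.3 and 77.5 CPM, which gives 3.82-fold and 3.71-fold. Intercalated duct-like nuclei were the only ranked class above free RNA in Foxc1 in both libraries, free RNA being at 103 and 74.7 CPM.

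The other 5 genes stood less than 2-fold above the next class. Ehf was at 1228 and 962 CPM, which was 1.83-fold and 1.65-fold above the next class, and below the second acinar-like group taken alone, in both libraries. Barx2, a homeobox factor of branching glands, was at 785 and 594 CPM against 565 and 393 CPM in acinar-like nuclei. Elf5, an ETS factor of mammary and salivary secretory progenitors, was at 251 CPM (221 to 284) and 169 CPM (146 to 194) against 185 CPM (178 to 193) and 156 CPM (149 to 162) in acinar-like nuclei, with intervals that overlapped in the null library. Grhl1, a grainyhead factor of epithelial barriers, was at 165 and 146 CPM, which was 1.59-fold and 1.51-fold above the next class. Sox9, a factor of gland buds, was at 184 and 261 CPM against 114 and 143 CPM in free RNA, and this was its only ranked class above free RNA in both libraries.

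Luminal duct-like and ionocyte-like nuclei shared high levels of Tfcp2l1 and Elf3. Tfcp2l1, a grainyhead-related factor known from kidney and salivary ducts, was at 3402 CPM (3331 to 3474) and 2727 CPM (2659 to 2795) in luminal duct-like nuclei. Ionocyte-like nuclei followed at 2748 and 2259.5 CPM, then intercalated duct-like nuclei at 1195 and 1195 CPM and myoepithelial or basal-like nuclei at 1173 and 992 CPM. The intervals of the last 2 overlapped in the control library, and those of the higher classes did not overlap in either. This order holds for pooled, ranked classes only. Taken alone, the keratin-only group of the myoepithelial or basal-like class, described below, stood above ionocyte-like nuclei in both libraries. A small unranked group with duct and basal markers, also described below, stood above luminal duct-like nuclei in both. Thinned to 500 UMIs, 75.1% and 69.3% of luminal duct-like nuclei had a UMI of Tfcp2l1, against 17.7% and 12.6% of free-RNA barcodes.

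Elf3, an ETS factor of mature epithelium, was at 60.7 CPM (40 UMIs) and 54.8 CPM (28 UMIs) in ionocyte-like nuclei and at 44.7 and 31.6 CPM in luminal duct-like nuclei, with overlapping intervals in each library. Foxp1, a forkhead repressor present in many tissues, was highest in ionocyte-like nuclei at 2787 and 2680.5 CPM and next in group 5 at 2386 and 2005 CPM. It exceeded free RNA in 11 of the 12 classes in both libraries, all but the fibroblast-like one, more classes than any other of the 37 genes.

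Trp63, which encodes p63, the factor that maintains basal epithelium, marked myoepithelial or basal-like nuclei. Its level there was 764 CPM (721 to 809.5) and 556 CPM (519.7 to 594). Fibroblast-like nuclei were next in the control library and macrophage-like nuclei in the null library, which gives 51.7-fold and 37.7-fold. Tfap2c, an AP-2 factor of trophoblast and mammary epithelium, was at 161 and 158 CPM in the same class, and intercalated duct-like nuclei came next at 31.5 CPM (31 UMIs) and 66.4 CPM (78 UMIs). Grhl2, a grainyhead factor of epithelial junctions, was at 435 CPM (402 to 469) and 338 CPM (309 to 368) there and at 385 CPM (347 to 426) and 343 CPM (310.5 to 378) in intercalated duct-like nuclei, so its intervals overlapped and its highest class changed between the libraries.

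The myoepithelial or basal-like class joins 2 groups that these genes separated. The contractile group of 339 and 473 nuclei had raised Acta2, Cnn1 and Myh11, the smooth muscle genes of myoepithelium. The keratin-only group of 136 and 208 nuclei was led by Lef1 and Edar and had raised Krt5 and Krt14 without those contractile genes. Trp63 was at 987 and 749 CPM in the contractile group and at 290.4 and 204 CPM in the keratin-only group. Tfap2c was at 224 and 223 CPM against 27.0 and 39.7 CPM, and Sox10 at 159 and 298 CPM against 43.6 and 68.6 CPM. Tfcp2l1, which among the ranked classes was highest in luminal duct-like nuclei, had the opposite order. It was at 193 and 220.4 CPM in the contractile group and at 3260.4 and 2395 CPM in the keratin-only group. Runx1 was also higher in the keratin-only group, at 400.3 and 374 CPM against 198 and 151 CPM. For each of these 5 genes the intervals of both groups were apart in both libraries. A further group of 18 and 12 nuclei, in which duct and basal markers were raised alike, had Tfcp2l1 at 4111 and 2896 CPM and Trp63 at 654 CPM (35 UMIs) and 329.9 CPM (9 UMIs).

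**Figure D2:**
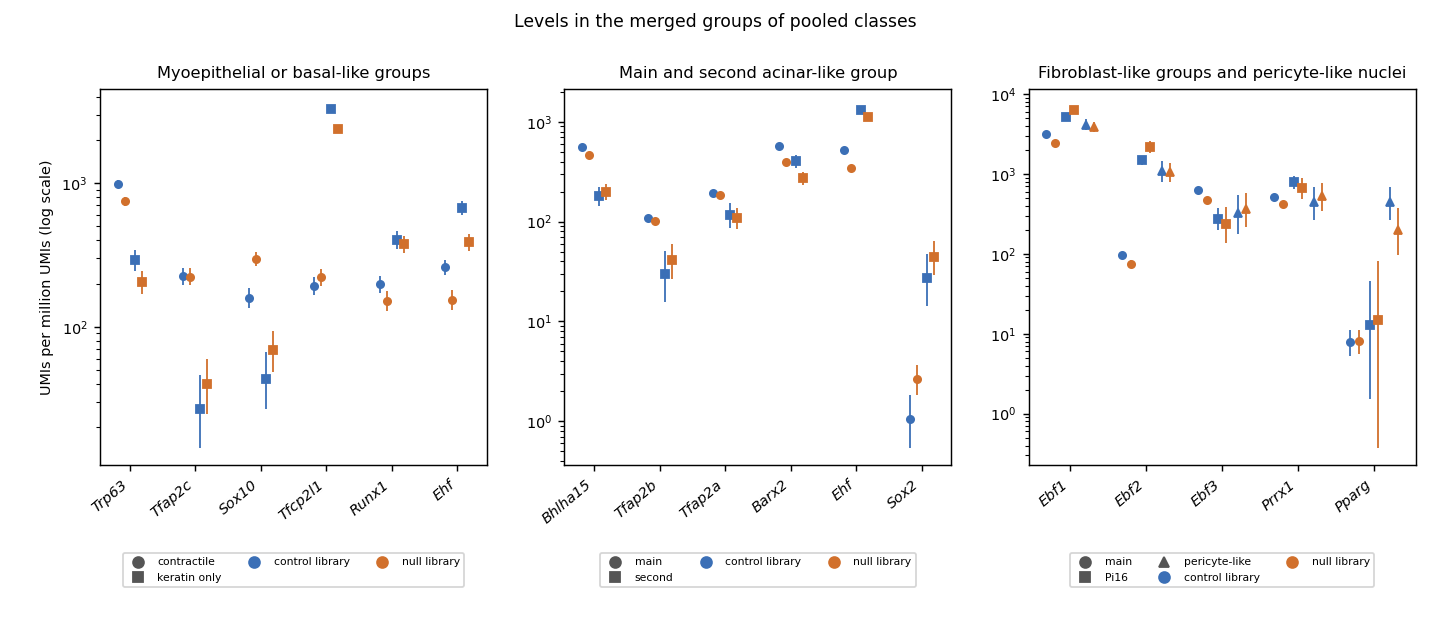
CPM on a log scale, with exact Poisson 95% intervals, of selected genes in the groups that make up the pooled classes and in pericyte-like nuclei, for the control and null libraries. In the left panel Tfcp2l1 is higher in the keratin-only than in the contractile group while Trp63 is lower, and in the right panel Ebf2 is higher in the Pi16 group and in pericyte-like nuclei than in the main fibroblast-like group.

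Prrx1, Ebf2 and Ebf3 were highest in fibroblast-like nuclei and Ebf1 in endothelial-like nuclei, in both libraries, among the ranked classes. Prrx1, a homeobox factor of limb and craniofacial mesenchyme, was at 519 CPM (497 to 542) and 425 CPM (407 to 445) in fibroblast-like nuclei, 8.42-fold and 5.20-fold above the next class. Ebf2, known from adipocyte precursors, was at 150.4 and 106 CPM there, 4.22-fold and 6.22-fold above the next class. Ebf3, its relative, was at 612 and 462 CPM in fibroblast-like and 289.7 and 310.0 CPM in endothelial-like nuclei, a lead of 2.11-fold and 1.49-fold. Ebf1, which is better known from B cells, was at 3836 and 2933 CPM in endothelial-like and 3251 and 2497 CPM in fibroblast-like nuclei, 1.18-fold and 1.17-fold apart.

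Ebf2 was highest in small groups. In a fibroblast-like group of 44 and 36 nuclei with Pi16 and Ebf2 itself among its leading genes, Ebf2 was at 1487 CPM (233 UMIs) and 2166 CPM (147 UMIs), against 95.7 and 74.7 CPM in the main fibroblast-like group. Pericyte-like nuclei, 13 and 27 in number and too few for the ranking, had 1087 CPM (47 UMIs) and 1045 CPM (52 UMIs), so fibroblast-like nuclei led in Ebf2 only among the ranked classes. Ebf1 was at 5163 and 6381 CPM in the Pi16 group, 4139 and 3899 CPM in pericyte-like nuclei and 3173 and 2438 CPM in the main group. Prrx1 in pericyte-like nuclei, at 439 CPM (265 to 686) and 522 CPM (341 to 766), had intervals that included its level in the main group, 508 and 422 CPM, so its lead too holds only among the ranked classes.

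Pparg, the nuclear receptor of fat storage and of some tissue macrophages, was sparse. It was at 96.6 CPM (33 UMIs) and 71.5 CPM (21 UMIs) in endothelial-like and 72.5 CPM (59 UMIs) and 53.7 CPM (40 UMIs) in macrophage-like nuclei, with overlapping intervals, and pericyte-like nuclei had 439 CPM (19 UMIs) and 201 CPM (10 UMIs). Twist1 and Twist2, helix-loop-helix factors of mesenchyme, had 41 to 52 UMIs per library over the 12 classes. Fibroblast-like nuclei were highest for Twist1 at 5.51 CPM (22 UMIs) and 4.41 CPM (20 UMIs), with 4.38-fold and 1.03-fold over the next class, in the null library the Schwann-like one with 1 UMI. For Twist2 they had 7.77 CPM (31 UMIs) and 7.05 CPM (32 UMIs), and myoepithelial or basal-like nuclei 5.96 CPM (9 UMIs) and 10.9 CPM (17 UMIs), all of them in the contractile group, so the highest class changed between the libraries. Myocd, an activator of smooth muscle genes, had 2 and 5 UMIs over the 12 classes, too few to place it.

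Endothelial-like nuclei were led by Erg, Sox17 and Sox18, the ETS factor and SOX factors of vessel identity. Erg was at 214 CPM (73 UMIs) and 276 CPM (81 UMIs), which was 82.0% and 80.2% of its UMIs over the 12 classes, from 125 and 150 nuclei. Its next class had 1 UMI in each library. Sox17 was at 87.8 CPM (59.2 to 125) and 68.1 CPM (41.6 to 105), above the upper bound of every other ranked class, at most 32.5 and 22.3 CPM. Sox18 rested on 13 and 5 UMIs, and its interval overlapped that of T, NK or innate lymphoid-like nuclei in both libraries, where it had 0 UMIs. Gata2, a factor of vessels and blood precursors, had 21 of its 26 control UMIs and 7 of its 17 null UMIs in this class, below the depth for ranking.

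Gata3, which directs T helper and innate lymphoid cells, was at 238 CPM (157 to 346) and 163 CPM (107 to 237) in T, NK or innate lymphoid-like nuclei, on 27 UMIs in each library. These 49 and 91 nuclei held 48.2% and 40.9% of the Gata3 UMIs of the 12 classes. Runx1, a factor of blood lineages that epithelia also use, was at 1168 CPM (1095 to 1245) and 793 CPM (730.4 to 859.6) in macrophage-like nuclei and at 848 CPM (792 to 908) and 834 CPM (782 to 888) in intercalated duct-like nuclei. The highest class changed between the libraries, and in the null library the intervals overlapped. Runx1 exceeded free RNA in 7 classes in both libraries, of which 5 were epithelial, and was at 25.4 and 22.0 CPM in acinar-like nuclei.

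**Figure D3:**
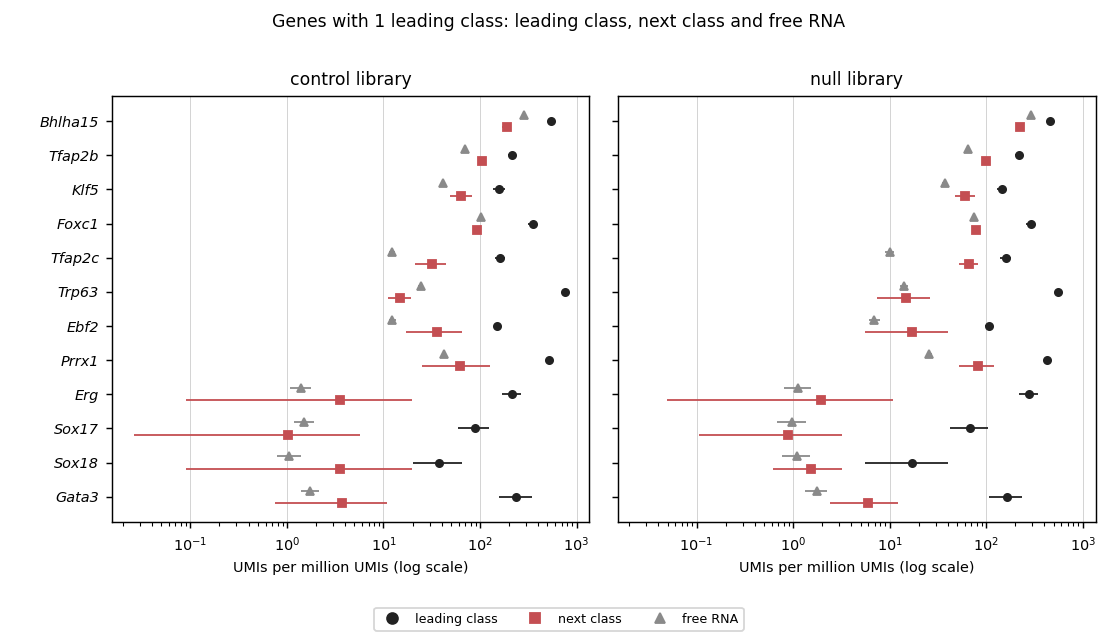
CPM on a log scale of the 12 genes with 1 leading class, in the leading class, in the next class and in free RNA, with exact Poisson 95% intervals, for the control (left) and null (right) library. For Bhlha15 free RNA lies between the next class and the leading class, whereas for Trp63, Erg and Sox17 the leading class lies far above both.

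Six4 and Grhl3 had no clear class. Six4, a homeobox factor of placodes and muscle, was at 65.2 and 60.3 CPM in group 5, the highest class of the control library, and at 45.5 and 72.4 CPM in ionocyte-like nuclei, the highest of the null library, against 47.0 and 46.4 CPM in free RNA. Grhl3, a grainyhead factor of skin barrier formation, had 22 and 16 UMIs over the 12 classes, of which 7 and 10 were in luminal duct-like nuclei.

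As a description, levels were correlated (Pearson) over the 12 classes, which share a library and its free RNA. The values used were log2 CPM, with a constant added to CPM before the log. The correlation was 0.97 and 0.98 for Ebf1 with Ebf3. Grhl1 with Grhl2 had 0.68 and 0.80, and Elf5 with Ehf 0.60 and 0.62. Sox9 with Sox10 had 0.04 and 0.03, Tfap2b with Tfap2c 0.26 and 0.35 and Foxc1 with Foxp2 -0.30 and -0.26.

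Other transcription factors led in ionocyte-like, macrophage-like and Schwann-like nuclei, and 0 of the listed ones in luminal duct-like nuclei. For each class, the 2 genes of the list of 103 with the largest fold over the next class, by the lower of both libraries, were taken from those with at least 50 UMIs in each library. Ionocyte-like nuclei had Foxi1 (144 and 135 CPM) and Ascl3 (115 and 86.2 CPM), the known ionocyte factors. Macrophage-like nuclei had Spi1 (182 and 177 CPM) and Lyl1 (65.2 and 53.7 CPM), and Schwann-like nuclei Zfp536 (1439 and 1547 CPM) and Sox6 (1607 and 1166 CPM). In group 5 Nkx2-3, a homeobox factor, was at 176 and 131 CPM, which was 8.92-fold and 4.32-fold above the next class. Bcl6b and Mecom in endothelial-like, Nfatc4 and Prrx2 in fibroblast-like, Osr1 and Id4 in myoepithelial or basal-like and Runx3 and Tox in T, NK or innate lymphoid-like nuclei also had 1 leading class. On fewer UMIs, and named after their values were seen, Nr5a2 in endothelial-like and Tbx18 and Osr2 in fibroblast-like nuclei had 1 leading class. By the lower fold of both libraries, Nr5a2 (50.5-fold) and Tbx18 (4.84-fold) stood above both genes named in their class. Osr2 (3.47-fold) stood above Prrx2 only. Creb3l2 and Ovol1 in acinar-like nuclei, Trps1 and Tead2 in group 4, Irx3 in group 5, Hes1 and Mrtfb in intercalated duct-like nuclei and Esrrg and Runx2 in luminal duct-like nuclei were highest there but short of 2-fold.

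Few of the 37 genes differed past 2-fold between null and control within a class. Of the 10 genes with 1 leading class that could be compared there, 0 did so in that class. These genes were chosen for a lead in both libraries, so the 0 is not independent of that choice. The share over all genes in their leading classes was not taken. The comparison asks how the levels of the 37 genes stood after loss of the remaining Csf2 allele. Over 11 classes with at least 50 nuclei in each library, 217 pairs of a gene and a class had at least 50 UMIs over both libraries, from 31 of the 37 genes. The null library differed past 2-fold in 8 of the 217 pairs (3.69%), against 2.02% of all 75987 pairs of any gene and class. Of the 8 pairs 5 were higher (background 0.992%) and 3 lower (1.03%). By class the counts were 1 of 28 in acinar-like nuclei (background 2.31%), 1 of 6 in Schwann-like (7.74%), 2 of 21 in intercalated duct-like (1.61%), 1 of 20 in ionocyte-like (1.8%), 1 of 21 in luminal duct-like (1.71%) and 2 of 18 in macrophage-like nuclei (1.64%). They were 0 of 28 in fibroblast-like (2.39%), 0 of 12 in endothelial-like (2.75%) and 0 of 22 in myoepithelial or basal-like nuclei (1.2%), 0 of 21 in group 4 (1.43%) and 0 of 20 in group 5 (1.78%).

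**Figure D4:**
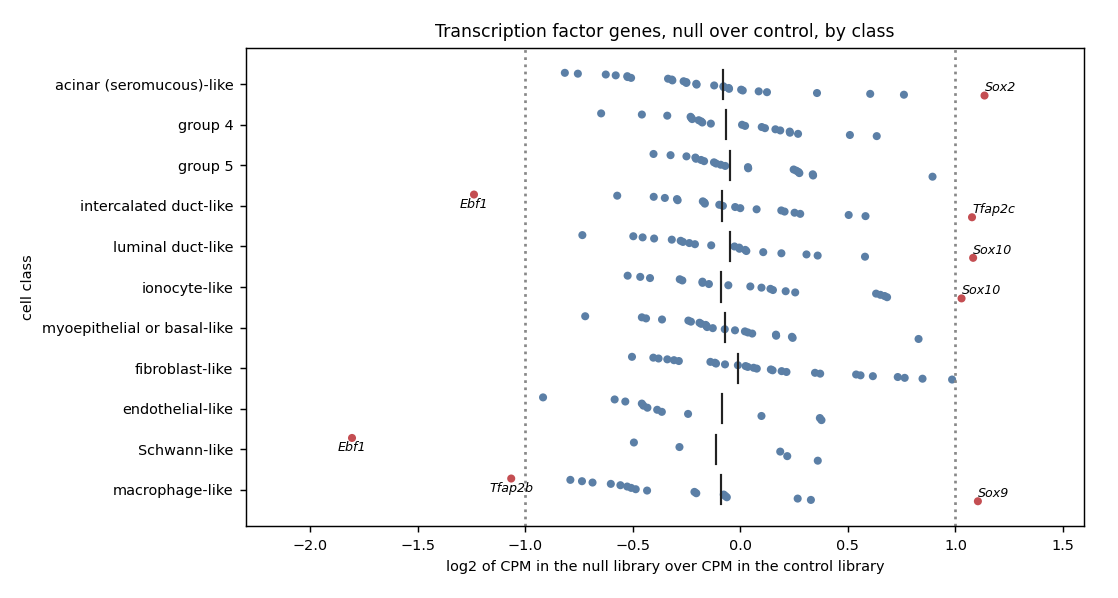
Log2 ratio of CPM in the null library over the control library for each pair of a gene and a class with at least 50 UMIs, 1 point per gene, with classes as rows. Named points are the 8 pairs past 2-fold (dotted lines at -1 and 1), and the black bar is the median over all genes of the class, which lies between -0.11 and -0.01.

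In their own leading class, the log2 ratio of null over control was -0.26 for Bhlha15, -0.46 for Trp63, 0.02 for Tfap2b, -0.12 for Klf5 and -0.29 for Foxc1. It was -0.03 for Tfap2c, -0.50 for Ebf2, -0.29 for Prrx1, 0.37 for Erg and -0.37 for Sox17. Gata3 and Sox18 had too few nuclei or UMIs there to be compared. The 8 pairs past 2-fold all lay in classes other than the gene's highest one, as did most of the 217 pairs from 31 genes.

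Sox10 was above 0 in 10 of 10 classes, with log2 ratios from 0.18 in Schwann-like to 1.08 in luminal duct-like nuclei. Of all genes compared, 39.1% (macrophage-like) to 48.4% (fibroblast-like) were above 0 by class, and 24.9% in free RNA. The share of all genes on 1 side of 0 in every class was not taken, and all classes share the same 2 libraries. In luminal duct-like nuclei Sox10 was at 39.6 CPM (102 UMIs) and 83.9 CPM (191 UMIs), a log2 ratio of 1.08 (0.73 to 1.44). In ionocyte-like nuclei it was at 47.0 CPM (31 UMIs) and 95.9 CPM (49 UMIs), a log2 ratio of 1.03 (0.35 to 1.73). Both classes lay below the free RNA level of Sox10, 96.7 and 110.3 CPM, whose own ratio was 0.19. With free RNA subtracted, the ratios were 2.36 in luminal duct-like and 1.94 in ionocyte-like nuclei, the latter with fewer than 50 UMIs left. In the glandular lineages known for Sox10 the ratio was 0.76 in acinar-like and 0.83 in myoepithelial or basal-like nuclei.

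Sox9 was above 0 in 9 of 9 classes, from 0.24 in myoepithelial or basal-like to 1.10 in macrophage-like nuclei, and at 0.33 in free RNA. In macrophage-like nuclei it was at 40.6 CPM (33 UMIs) and 87.2 CPM (65 UMIs), a log2 ratio of 1.10 (0.48 to 1.75), below the 114 and 143 CPM of free RNA. In its highest class, intercalated duct-like nuclei, the ratio was 0.50. The 8 secretory genes took 15.0% of macrophage-like UMIs in control and 18.9% in null nuclei. With free RNA subtracted, Sox9 in macrophage-like nuclei had no UMIs left in at least 1 library and gave no ratio.

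Sox2 in acinar-like nuclei was at 2.01 CPM (24 UMIs) and 4.42 CPM (65 UMIs), a log2 ratio of 1.14 (0.44 to 1.88). Free RNA had a log2 ratio of 1.21, and Sox2 was the only one of 35 of the genes past 2-fold there, where 4.95% of all genes were. With the free RNA profile of each library subtracted, the ratio in acinar-like nuclei was -0.35. Fewer than 50 UMIs were then left over both libraries, too few to settle the sign. In group 5, its highest ranked class, the ratio was 0.26.

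Ebf1 was below 0 in 11 of 11 classes, from -1.81 to -0.13, and at -0.95 in free RNA. In Schwann-like nuclei it was at 359.8 CPM (101 UMIs) and 103 CPM (24 UMIs), a log2 ratio of -1.81 (-2.51 to -1.15). Without nuclei above 2 times the median UMI number of their group and library, a setting added after the data were seen, that ratio was -0.56, and with free RNA subtracted it was -2.16. Ebf3 had 20 and 8 UMIs and Ebf2 10 and 0 UMIs in these nuclei. Endothelial markers summed to 189 and 47.1 CPM there, with 4 and 10 of 15 genes at 0. Pericyte or smooth muscle markers summed to 242 and 98.6 CPM, with 4 and 7 of 13 at 0, and neuron markers to 2066 and 1114 CPM, with 0 and 8 of 9 at 0. These lists were lower in the null library as Ebf1 was. Fibroblast markers fell less, from 2148 to 1727 CPM, with 2 and 1 of 12 genes at 0. Not every list fell, and the acinar list rose from 98914 to 154822 CPM. The part of any of these lists in the Ebf1 ratio was not tested. In intercalated duct-like nuclei Ebf1 was at 98.5 CPM (97 UMIs) and 41.7 CPM (49 UMIs), a log2 ratio of -1.24 (-1.77 to -0.73), below its free RNA level of 208 and 108 CPM. In the classes that held most Ebf1 the ratio was -0.38 in fibroblast-like and -0.39 in endothelial-like nuclei. Barx2 was also below 0 in 10 of 10 classes and Grhl2 in 9 of 9, with Grhl2 at -0.70 in free RNA. The median over all genes was below 0 in each class too. Barx2 had ratios of -0.53 in acinar-like nuclei and -0.74 in macrophage-like nuclei, beside -0.70 in free RNA.

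Tfap2c in intercalated duct-like nuclei was at 31.5 CPM (31 UMIs) and 66.4 CPM (78 UMIs), a log2 ratio of 1.08 (0.46 to 1.73). Unlike the Sox10, Sox9 and Ebf1 pairs in duct-like, ionocyte-like and macrophage-like nuclei, it lay above free RNA, at 12.2 and 10.0 CPM, in both libraries. Free RNA had a ratio of -0.29, and with free RNA subtracted the pair stood at 1.31. Tfap2b in macrophage-like nuclei was at 59.0 CPM (48 UMIs) and 28.2 CPM (21 UMIs), a log2 ratio of -1.07 (-1.88 to -0.30), below free RNA in both libraries. With free RNA subtracted, that ratio was -4.76, with fewer than 50 UMIs left over both libraries.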

How the data were processed

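Nuclear RNA of 1 control and 1 null salivary gland library was prepared with a 10x Chromium 3' kit (v2), per the labels' protocols. The authors deposited raw UMI counts per gene and barcode, made with Cell Ranger 7.0.0 on GRCm39, per the submitters' processing notes. The gene annotation and whether intron reads were counted are not given in the sources used here, and counting error sets the precision.

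Barcodes were kept from 500 UMIs and 300 detected genes upward, with mitochondrial UMIs under 5%. They were clustered on 2000 variable genes, 30 components and 20 neighbours. These were computed with NumPy 2.4.6 and SciPy 1.17.1, and Leiden clustering with igraph 0.11.9. Clusters whose share of 8 secretory genes reached at least 0.75 of that of barcodes under 1000 UMIs were taken as free RNA. The remaining nuclei were clustered again (resolution 2.0) without transcription factors, and clusters correlating at 0.5 or more were merged. For the nuclei, genes were scaled within each library and neighbours were taken equally from both libraries. Groups were named from marker lists, and groups of 1 name were pooled. Doublets were left in. Scrublet, run through Scanpy 1.11.5, called 3.37% of control and 0.04% of null nuclei. A share under 0.5% was taken to mean that it had not worked. In all, 28 barcode sequences were nuclei in both libraries.

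UMIs were summed per class and library, with no test between genotypes. The steps were checked on simulated data. The 37 genes and the lists were chosen with earlier results of these data known. All 37 are named, and of the other factors the 2 per class with the largest fold among those with at least 50 UMIs in each library, and every pair past 2-fold between libraries. Alternatives changed the filters, clustering, doublets, free RNA, depth and thresholds. The 14 genes without a promoter entry are Foxp2, Sox10, Barx2, Grhl2, Ebf2, Sox9, Klf5, Trp63, Sox18, Tbx3, Tfap2c, Sox17, Ehf and Myocd.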

Additional observations from a re-analysis of the deposited data

How the results depend on the processing

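The 12 genes with 1 leading class became 5 with each nucleus thinned to 500 UMIs and 7 when 4-fold was required. Under the other 13 alternatives the number ran from 8 to 13. Trp63, Ebf2 and Prrx1 were called under all 15 alternatives, Bhlha15 and Klf5 under 8 and Tfap2b under 7. The cause was not tested. The 8 pairs past 2-fold between libraries became 13 with transcription factors among the variable genes, 24 with free RNA subtracted (3 of them shared with the 8), 2 with thinning (0 shared), 17 with at least 20 UMIs and 4 with at least 100 UMIs over both libraries. Fewer UMIs or pairs were available with thinning and with the higher minimum. Under the other alternatives the number ran from 6 to 12. Of the 8 pairs, Sox2 in acinar-like nuclei changed sign, to -0.35, with free RNA subtracted, on fewer than 50 remaining UMIs. Sox10 in ionocyte-like nuclei fell short of 2-fold under 6 of 12 alternatives. Balanced against unbalanced neighbours, leaving out nuclei of high UMI number and each merged group on its own were added after the data were seen. Naming each nucleus by its own markers gave no ranking, because 99.8% of the nuclei it named were called acinar. Levels in the highest class stayed within their counting interval in 345 of 444 cases, but 33 of 37 moved with free RNA subtracted and 32 of 37 with totals without the 100 most abundant genes of free RNA. No paired analysis was possible because each genotype had 1 library, so the groups shared 1 replicate number.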
